A study of Rattus norvegicus with 6 samples.

Results

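Genes of the Sonic hedgehog pathway were examined in polyA RNA-seq of cultured neural progenitors of the rat. The genes were taken by symbol as parts of the pathway, with no threshold on a measured value, and were *Shh*, *Ptch1*, *Smo*, *Gli1*, *Gli2*, *Gli3*, *Sufu*, *Hhip*, *Gas1* and *Boc*. Of these 10 genes, 8 were matched to the 17337 gene names of the expression tables, while the expression of the co-receptor genes *Gas1* and *Boc* was not analysed here. The cells came from the cortices of Sprague Dawley embryos of either sex at embryonic day 14, were grown untreated with bFGF and EGF, and were taken after the second passage. All libraries are of this 1 condition. Biological replicates A and B were each sequenced as 2 technical libraries, called A1, A2, B1 and B2 here.

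Hedgehog signalling starts when a secreted ligand such as *Shh* binds the receptor *Ptch1*, which otherwise keeps the membrane protein *Smo* silent. Active *Smo* works at the primary cilium and frees the Gli transcription factors from *Sufu*, so that *Gli2* acts mainly as an activator, while *Gli3* is processed into a repressor where the ligand is absent. *Gli1*, *Ptch1* and *Hhip* are direct target genes whose mRNA is commonly used as a readout of the pathway, and in the forebrain the pathway patterns the ventral side.

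The promoter windows of the direct target genes *Ptch1* and *Hhip* are shown first, because the text returns to the levels of these genes, while the window of *Gli1* was not analysed here. Each window is taken from RefSeq on the GRCr8 build, which differs from the rn6 build of the expression tables, and runs from 250 bases before the start to 50 bases after it. The Gli consensus GACCACCCA was searched on both strands, where it reads TGGGTGGTC on the other, and a match is set in capitals. The *Ptch1* window is chr17:1555321-1555620 on the plus strand, and the start used for it lies 7122 bases inside the span of the gene. *Ptch1* is on the minus strand in rn6 and on the plus strand in GRCr8, and its neighbours *Fancc* and *Hsd17b3* also lie in the reverse order in these builds. The *Hhip* window is chr19:44767788-44768087 on the plus strand.
Ptch1: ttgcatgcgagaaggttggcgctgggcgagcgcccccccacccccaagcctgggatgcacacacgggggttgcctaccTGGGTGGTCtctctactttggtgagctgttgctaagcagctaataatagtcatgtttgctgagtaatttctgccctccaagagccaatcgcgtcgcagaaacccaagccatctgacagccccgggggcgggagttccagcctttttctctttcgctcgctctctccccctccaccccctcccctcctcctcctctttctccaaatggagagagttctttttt
Hhip: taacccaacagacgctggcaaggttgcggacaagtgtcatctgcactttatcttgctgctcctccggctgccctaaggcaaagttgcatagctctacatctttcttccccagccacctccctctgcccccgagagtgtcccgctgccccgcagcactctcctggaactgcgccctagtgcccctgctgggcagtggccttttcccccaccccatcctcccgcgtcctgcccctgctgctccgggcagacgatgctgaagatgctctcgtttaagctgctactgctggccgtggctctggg

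The consensus lay on the antisense strand of the *Ptch1* window at positions -172 to -164 from the start. It was present in 0.385% of the 33469 windows of all genes, while the *Hhip* window had no exact match. Of the 7 pathway members with a window (*Ptch1*, *Smo*, *Sufu*, *Hhip*, *Boc*, *Gli2* and *Gli3*), *Ptch1* was the only one with a match. Among 34 further pathway genes with a window, *Ulk3*, a kinase gene of the pathway, had the consensus at -247 to -239. A match gives the letters only and does not show that a factor binds there.

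Expression was measured in FPKM, fragments scaled for the length of a transcript and the size of a library, so that levels may be compared between genes. The depth of a library was read as the coverage, or mean read depth per base, that corresponds to 1 FPKM. It was between 22.7 and 24.4 in A1, A2 and B1 and 6.83 in B2, so that low values rest on the least sequence in B2. The SD of a level is over the 2 biological replicates, each the average of its technical libraries. Nothing states whether A and B came from separate litters. With 1 condition there was no test between groups, and differences between A and B are described only.

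The label of cortical progenitors was checked against marker genes. All 9 progenitor genes of the list that were matched were at a mean of at least 1 FPKM, with *Fabp7* the highest at 11840 FPKM. The cortical genes *Pax6* (33.9 FPKM) and *Emx2* (13.2 FPKM) were present, while *Tbr1* and *Neurod2*, which mark cortical neurons, were at 0.259 and 0.301 FPKM. Of the 8 neuronal markers, 5 had a mean of at least 1 FPKM, with *Tubb3* at 118, *Stmn2* at 21.4 and *Dcx* at 9.70 FPKM. Genes of the ventral forebrain were also present. *Nkx2-1*, which the hedgehog pathway induces in the ventral forebrain, had 80.5 FPKM, *Dlx1* had 72.7 FPKM, and 5 of the 7 ventral genes were at 1 FPKM or more. The libraries therefore held RNA of ventral forebrain genes that the label of cortex does not name.

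The composition of the libraries also differed between the replicates. The summed FPKM of 9 mesenchymal and meningeal markers was 631 to 645 in the libraries of A and 2467 to 3263 in those of B, and all 9 were higher in B. The sum of the ventral forebrain markers was 301 to 323 in A and 144 to 152 in B, and that of the cortical progenitor markers was 21116 to 23184 in A and 10057 to 10747 in B. The latter gap was carried by *Fabp7*, and the sum of the other 8 progenitor markers was 4317 and 4627 in A1 and A2 and 3537 and 5262 in B1 and B2, with overlap between A and B. Sums of neuronal markers were 162 to 186 in A and 147 to 159 in B, and those of oligodendrocyte precursor markers were 249 to 274 and 347 to 687. Endothelial and microglial markers summed to at most 2.13 FPKM and 1.34 FPKM in any library, with *Cx3cr1* listed at 0 in A1, A2 and B2. The libraries B1 and B2 also differed from each other in some markers. *Ptgds* had 8.18 FPKM in B1 and 292 FPKM in B2, *Foxc1* had 29.4 and 115 FPKM, and *Olig1* had 523 and 237 FPKM. In A1 and A2 these genes had 3.86 and 5.22, 14.2 and 14.1, and 172 and 195 FPKM. Other markers were close in B1 and B2, such as *Pdgfra* at 59.5 and 59.4 FPKM. Why B1 and B2 differed was not tested. The mesenchymal and ventral forebrain sums differ between A and B as do the genes given below without overlap, and their part in those differences was not tested. In RNA from whole cultures, fewer cells of a type and less RNA per cell cannot be told apart.

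The pathway genes spanned a wide range of levels. Of the 8 genes, 6 had a mean of at least 1 FPKM, beside 60.5% of all gene names. The order by mean FPKM was *Smo*, *Gli2*, *Sufu*, *Ptch1*, *Gli3*, *Gli1*, *Shh* and *Hhip*. *Smo* lay above *Gli2* in every library, and *Shh* lay below *Gli1* and above *Hhip* in every library. The replicate means of *Gli2* and *Sufu* overlapped, as did those of *Sufu* and *Ptch1*, although *Gli2* lay above *Sufu* within each library. *Ptch1* lay above *Sufu* in A and below it in B. The replicate means of *Gli3* and *Gli1* also overlapped, and both genes lay below *Ptch1* in every library.

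**Figure D1:**
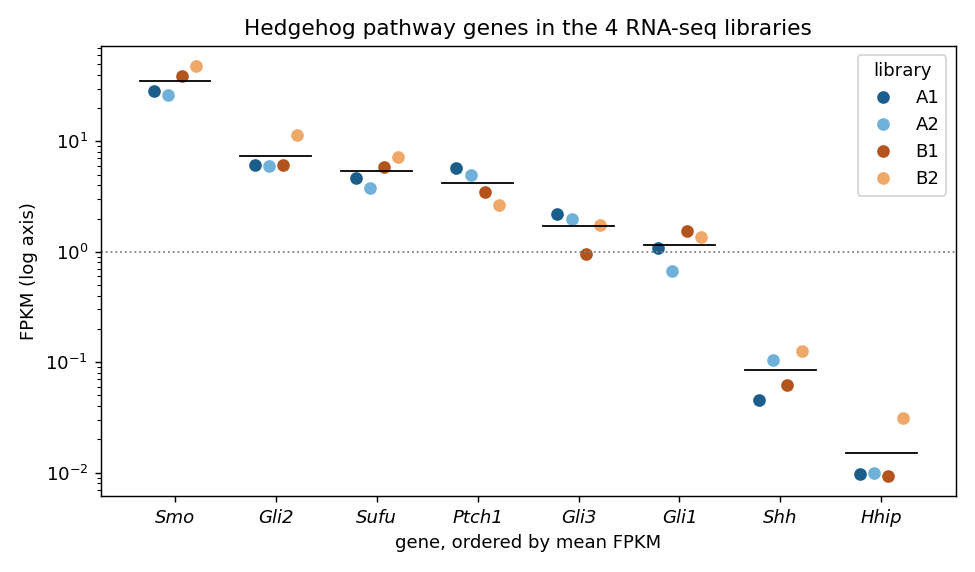
FPKM of the 8 pathway genes on a log axis, with 1 point for each of the libraries A1, A2, B1 and B2 and a bar at the mean of the biological replicates. The dotted line marks 1 FPKM. *Smo* stands highest in every library, and *Shh* and *Hhip* lie below 0.13 FPKM throughout.

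*Shh* encodes the secreted ligand and spans positions 718538 to 727691 of chromosome 4 in rn6 (minus strand). Its level was 0.0459 and 0.104 FPKM in the libraries A1 and A2 and 0.0624 and 0.126 FPKM in B1 and B2. The replicates overlapped, and the mean was 0.0845 ± 0.0134 FPKM (SD, n = 2). The coverage behind these values was 1.11, 2.37, 1.52 and 0.858 reads per base. As a reference for genes that neural progenitors should not use, 5 of 1196 olfactory receptor genes (0.418%) had a higher mean than *Shh*. Of the 1196, 1003 were at 0 in every library, so that a very low value already lies above most of them. By mean FPKM *Shh* ranked 12625 of 17337 gene names, so its mRNA was listed in every library at a very low level.

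The other hedgehog ligands, *Ihh* and *Dhh*, were low as well, and are given here after their values were seen. *Dhh* had 0.644 and 0.705 FPKM in A1 and A2 and 0.274 and 0.278 FPKM in B1 and B2. *Ihh* had 0.396, 0.394, 0.144 and 0.363 FPKM in the same order. Both were higher in A than in B in each library, and both lay above *Shh* in every library. No hedgehog ligand gene reached 1 FPKM in any library.

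*Hhip* encodes a membrane protein that binds and sequesters hedgehog ligands, and spans positions 31525134 to 31614487 of chromosome 19 in rn6 (plus strand). It had 0.00971 and 0.00991 FPKM in the libraries A1 and A2 and 0.00935 and 0.0311 FPKM in B1 and B2. The mean of 0.0150 ± 0.00736 FPKM (SD, n = 2) was the lowest of the 8 genes, and 40 of 1196 olfactory receptor genes (3.34%) were above it. Its coverage was between 0.212 and 0.236 reads per base in all 4 libraries. The higher FPKM of B2 thus went with the same coverage as in the other libraries, at a depth that was 28.1% of that of B1. At this depth no difference in *Hhip* between the replicates could be read.

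*Ptch1* encodes the receptor of the ligand and spans positions 1032242 to 1085885 of chromosome 17 in rn6 (minus strand). Its level was 5.70 and 4.95 FPKM in the libraries A1 and A2 and 3.45 and 2.66 FPKM in B1 and B2. Both libraries of A were above both libraries of B. The mean was 4.19 ± 1.61 FPKM (SD, n = 2), and replicate A was 1.74 times replicate B.

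*Smo* encodes the signal transducer that *Ptch1* restrains, and spans positions 57019941 to 57041779 of chromosome 4 in rn6 (plus strand). It had 28.3 and 26.5 FPKM in the libraries A1 and A2 and 39.5 and 47.7 FPKM in B1 and B2. Here both libraries of B were above those of A, and B was 1.59 times A. With a mean of 35.5 ± 11.4 FPKM (SD, n = 2) and rank 3032, *Smo* was the only member above 10 FPKM except for *Gli2* in B2. Its coverage was 326 reads per base in the shallow library B2 and 603 to 962 in the others, the deepest of the 8 genes.

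*Sufu* encodes the cytoplasmic protein that holds Gli factors, and spans positions 266143818 to 266239017 of chromosome 1 in rn6 (plus strand). Its level was 4.65 and 3.79 FPKM in the libraries A1 and A2 and 5.80 and 7.17 FPKM in B1 and B2. Both libraries of B were above those of A, and the mean was 5.35 ± 1.61 FPKM (SD, n = 2). Replicate B was 1.54 times replicate A.

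*Gli2* and *Gli3* encode the factors that carry the first response to the signal. *Gli2* spans positions 34829021 to 34885485 of chromosome 13 in rn6 (minus strand) and had 6.16 and 5.99 FPKM in the libraries A1 and A2 and 6.05 and 11.4 FPKM in B1 and B2. The libraries A1, A2 and B1 were close together, and the higher mean of replicate B rested on B2 alone. Its mean was 7.41 ± 1.88 FPKM (SD, n = 2). *Gli3* spans positions 52294942 to 52569036 of chromosome 17 in rn6 (minus strand) and had 2.17 and 1.98 FPKM in the libraries A1 and A2 and 0.957 and 1.75 FPKM in B1 and B2. Both libraries of A were above those of B, although A2 and B2 were closer to each other than B1 and B2. The mean of *Gli3* was 1.72 ± 0.509 FPKM (SD, n = 2).

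*Gli1*, the Gli factor that is itself a target gene, spans positions 70620794 to 70629964 of chromosome 7 in rn6 (minus strand). It had 1.08 and 0.665 FPKM in the libraries A1 and A2 and 1.53 and 1.35 FPKM in B1 and B2, with both libraries of B above those of A. The mean was 1.16 ± 0.402 FPKM (SD, n = 2), and B was 1.65 times A. The last 99 bases of *Gli1* overlap *Arhgap9* on the other strand, and it is not stated whether strand was used in counting. *Arhgap9* was at most at 0.126 FPKM in any library. The coverage of *Gli1* was 9.24 reads per base in B2 and 15.1 to 37.4 in the other libraries.

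The pathway genes were then set beside all genes for the difference between replicates A and B, taken as the difference of the mean log2(FPKM + 1). A gene was called apart when its mean was 1 FPKM or more, the difference was 1 or more on this scale, and every library of one replicate lay above every library of the other. No member was apart, beside 6.15% of the 10481 genes that reached a mean of 1 FPKM. Apart and higher in B were 4.58% of the 10481, and apart and higher in A were 1.57% of them. Without regard to size, *Smo*, *Sufu* and *Gli1* were higher in B in each library, as were 28.1% of these genes, and *Ptch1* and *Gli3* were higher in A in each library, as were 32% of them. *Gli2* overlapped.

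The differences of single members were moderate on the scale of log2(FPKM + 1). *Smo* was higher in B by 0.64 and *Ptch1* higher in A, with a difference of -0.65. Of the 10481 genes, 8.18% lay further out than *Smo* in its direction and 5.71% further out than *Ptch1*. The differences were 0.52 for *Sufu*, 0.39 for *Gli1*, 0.40 for *Gli2* and -0.41 for *Gli3*, and without B2 that of *Gli2* was -0.0060. With 1 library left out, *Gli3* moved to -0.16 without B1 and to -0.65 without B2, and *Gli1* to 0.23 without A2, with the sign kept. At a smaller difference of 0.58, *Ptch1* and *Smo* would be apart, beside 16.5% of all these genes. The median difference over the 8 genes was 0.21, beside 0 for all gene names, of which 2306 were at 0 in every library. It was -0.034 for the 10481 genes that reached a mean of 1 FPKM.

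**Figure D2:**
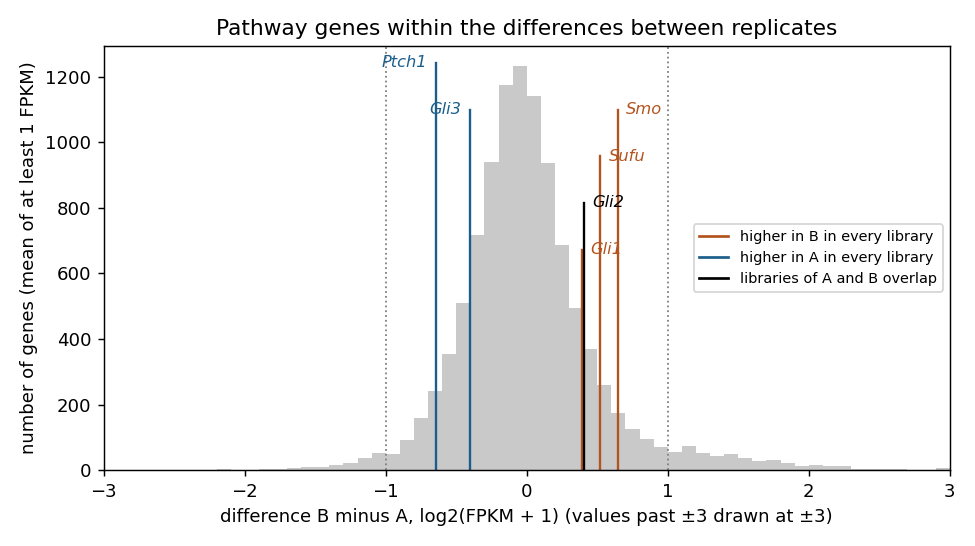
Difference between replicates B and A in mean log2(FPKM + 1) for all 10481 genes at 1 FPKM or more on average (grey bars, in steps of 0.1 with values past ±3 drawn at ±3), with the 6 pathway genes at that level as lines. Dotted lines mark a difference of 1, and all 6 lines, from -0.65 for *Ptch1* to 0.64 for *Smo*, lie between them.

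Ratios between pathway genes within a library do not depend on how the libraries were scaled, and were chosen after the levels were seen. The ratio of *Smo* to *Ptch1* was 4.97 and 5.35 in the libraries A1 and A2 and 11.4 and 17.9 in B1 and B2. The ratio of *Ptch1* to *Gli1* was 5.26, 7.45, 2.25 and 1.97 in the same order. The transducer thus stood further above the receptor in both libraries of B, and *Ptch1* stood less far above *Gli1* there. *Smo* to *Sufu* ranged from 6.10 to 7.00, with overlap between A and B.

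The 3 Gli genes made up different shares of their sum. *Gli2* held 65.4% and 69.4% in A1 and A2 and 70.8% and 78.6% in B1 and B2, and was the largest share in every library. *Gli3* held 23.1% and 22.9% in A1 and A2 and 11.2% and 12.1% in B1 and B2. *Gli1* held 11.5%, 7.70%, 18.0% and 9.30%, with overlap between the replicates. The ratio of *Gli2* to *Gli3* was accordingly 2.83 and 3.03 in A and 6.32 and 6.52 in B, and the technical libraries of each replicate lay close together. These are mRNA levels, and how much of *Gli3* was processed to the repressor was not measured.

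**Figure D3:**
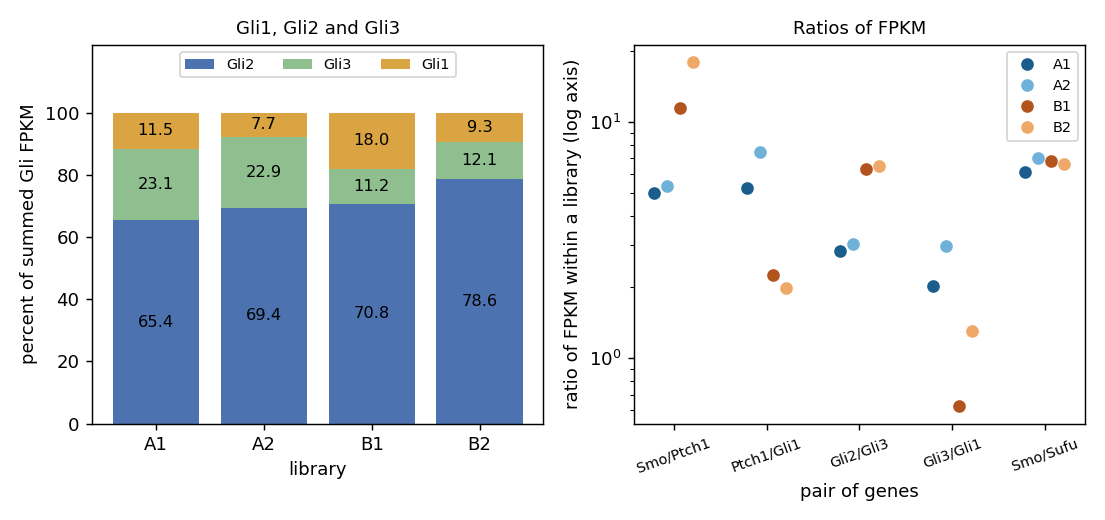
Left, share of *Gli1*, *Gli2* and *Gli3* in their summed FPKM, in percent, for each library. Right, ratios of FPKM between pairs of genes within a library on a log axis, with 1 point per library. The share of *Gli3* was near 23% in A1 and A2 and near 12% in B1 and B2, and the ratio of *Smo* to *Sufu* overlapped between A and B.

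Other genes of the pathway were taken from a list of 49, of which 41 were matched to the tables. A mean of at least 1 FPKM was reached by 33 of them. Of these, 15 were higher in B in each library, 4 were higher in A and 14 overlapped, beside the 28.1% and 32% of all genes. The median difference over the 41 genes was 0.067 on the log2(FPKM + 1) scale. Of the 33, 2 were apart, *Ccnd1* toward B and *Nkx2-1* toward A, a share near the 6.15% of all genes.

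Of the genes for ligands and their release, 2 of 5 matched genes had a mean of at least 1 FPKM, and of those for reception 1 of 3. *Disp1*, which releases the lipid-modified ligand, had 10.5 ± 0.406 FPKM (SD, n = 2), and *Scube1*, a secreted helper of release, had 2.74 ± 0.782 FPKM. *Cdon*, a co-receptor, had 1.92 and 1.58 FPKM in the libraries A1 and A2 and 2.23 and 2.64 FPKM in B1 and B2. *Lrp2*, a large endocytic receptor that binds *Shh*, had 1.24, 1.16, 0.434 and 0.611 FPKM, with both libraries of A above those of B.

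All 9 matched genes of *Smo* regulation and all 11 of Gli processing had a mean of at least 1 FPKM, beside 60.5% of all gene names, and none was apart. *Gnas*, which encodes the stimulatory G protein that keeps protein kinase A active, was listed at 1421 ± 340 FPKM (SD, n = 2). Its coverage of 875, 921, 1168 and 405 reads per base in A1, A2, B1 and B2 would correspond to 36.0, 40.5, 47.9 and 59.3 FPKM at the usual ratio of each library, so its level is uncertain. Of 93 genes of the lists, 3 departed from that ratio by more than 5%, *Gnas* and the markers *Col1a2* and *Ptprc*, and none was a member. *Adrbk1*, the kinase that phosphorylates *Smo*, had 27.8 ± 0.620 FPKM. *Prkar1a* and *Prkaca*, a regulatory and a catalytic subunit of protein kinase A, the kinase whose phosphorylation leads to processing of *Gli3*, had 165 ± 21.6 and 72.3 ± 16.0 FPKM.

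Of the 13 matched target genes, 10 had a mean of at least 1 FPKM, and of these 4 were higher in B in each library, 1 was higher in A and 5 overlapped, beside the 28.1% and 32% of all genes at that level. *Ccnd1*, a cyclin of the G1 phase, had 6.64 and 6.84 FPKM in the libraries A1 and A2 and 19.8 and 21.3 FPKM in B1 and B2, so that B was 3.05 times A. *Nkx2-1* had 117 and 103 FPKM in A1 and A2 and 57.1 and 45.9 FPKM in B1 and B2, so that A was 2.13 times B. These genes thus moved in opposite directions between A and B. *Nkx2-1* was no longer apart without A1, at -0.99, or without B2, at -0.93, while *Ccnd1* was apart with any library left out. *Olig2*, a factor of ventral progenitors, had 66.8, 69.3, 103 and 49.7 FPKM and overlapped. *Foxa2*, which marks the floor plate, was at most at 0.0282 FPKM and was listed at 0 in A1 and B2. Several of these genes also respond to other signals, and they are not a readout of hedgehog alone.

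**Figure D4:**
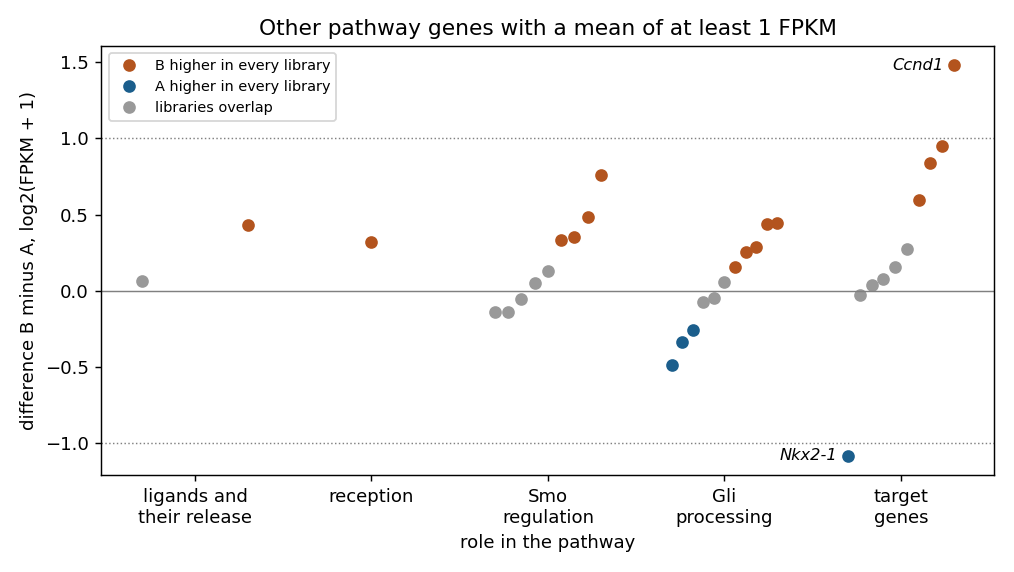
Difference between replicates B and A in mean log2(FPKM + 1) for the 33 other pathway genes at 1 FPKM or more on average, grouped by role, with 1 point per gene coloured by whether the libraries of A and B overlap. Dotted lines mark a difference of 1, which *Ccnd1* (1.48) and *Nkx2-1* (-1.08) passed.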

How the data were processed

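PolyA-selected RNA was sequenced from 2 biological replicates with 2 technical libraries each. Alignment by the authors used STAR and the rn6 build. The submitters' processing notes name StringTie, whose table layout the files have, and the methods name Rsubread and DESeq2 for FPKM. Versions are not given in the sources used here. FPKM was used as deposited by the authors, and TPM, also deposited, served as an alternative. Coverage, deposited by the authors as mean read depth without scaling, was used for depth. Start-seq (2 samples) was not used here.

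FPKM was summed over rows of the same gene name. Log2 values used a pseudocount of 1. The 10 members, the lists and the named genes (all members; of other pathway genes those apart and the 2 highest of each role; of markers the highest and those apart) were chosen with earlier results of these data known. Some marker genes and low pathway genes were named after their values were seen. Single olfactory receptor genes were matched by the symbol Olr and a number. No count model could be used. The call of genes as apart was run on simulated libraries, whose values are not given here. How often it is made by chance in these data was not tested. Python 3.11.15, pandas 2.3.3, numpy 2.4.6 and matplotlib 3.10.9 were used. The values of 1 gene of the pathway list are not reported here.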

Additional observations from a re-analysis of the deposited data

Results flagged for a closer look

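In 22 values over the 4 libraries, the gap of the most distant library to its nearest neighbour was compared with the range. It passed Dixon's critical value at the 95% level in 4, and each time the library was B2. Chance alone flags about 1 in 20 sets of independent samples, and technical pairs and ratios with shared genes are not independent. The values were the depth of B2, at 6.83 coverage per FPKM, *Hhip* at 0.0311 FPKM, *Gli2* at 11.4 FPKM, and the summed FPKM of the 3 Gli genes at 14.5, which *Gli2* dominates. In the other libraries *Gli2* was between 5.99 and 6.16 FPKM, and its coverage in B2 was 78.1 reads per base. Depth and some single markers, such as *Ptgds* and *Foxc1*, also differed between B1 and B2, and what part they play in the value of *Gli2* was not tested.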

How the results depend on the processing

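Of 88 alternatives for 12 results, in 74 a count stayed within 1.5 times its value, or a difference kept its sign and stayed within the SD between technical libraries. With a log2 difference of at least 0.58, 2 members (*Ptch1* and *Smo*) and 6 other pathway genes were apart, beside 16.5% of all genes. With 1 technical library left out, between 1 (without A1 or B2) and 5 (without B1, adding *Scube3*, *Ccnd2* and *Rab34*) other pathway genes were apart, and no member was. At a minimum of 10 FPKM, 1 member and 21 other pathway genes remained above it, and with 1 FPKM required in every library, 4 members. The sign of the difference between A and B turned for *Shh*, with leave-one-out values from -0.016 to 0.067, for *Hhip*, from -0.00065 to 0.030, and for *Gli2*, from -0.0060 to 0.81. A further 3 differences, those of *Shh*, *Hhip* and *Gli1* with a pseudocount of 0.1, moved without turning, to 0.15, 0.12 and 0.69. The cause was not tested, and rescaling of libraries and TPM turned none. Counts without B2 were added after the data were seen. No paired analysis was possible because the replicate letters name cultures of 1 condition, with no groups to compare.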
